A study of Arabidopsis thaliana with 8 samples.

Results

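Adjacent double windows are places where the list of bound DNA of a single protein holds a pair of overlapping windows. They were chosen by the distance between windows: within each list, every pair of neighbouring windows on 1 chromosome whose starts lay less than 200 bp apart was taken, and pairs of all lists that overlapped by at least 1 bp were merged into loci. This gave 926 pairs, 1849 of 116684 windows (1.58%), and 753 loci, against 39850 regions when all windows of all lists are merged. Because the start distance chose the pairs, the distances and the numbers of pairs per list are given as descriptions.

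The assay was ampDAP-seq: amplified genomic DNA is incubated with a protein synthesised by in vitro transcription and translation, and the fragments that stay on the purified protein are sequenced. The DNA of every sample came from Arabidopsis thaliana seedlings 2 weeks old; amplified DNA carries neither methylation nor chromatin. The 8 samples were an input, not analysed here, and 1 sample for each of 7 tagged ALOG proteins, namely TMF, G1, the pair LOS1 and LOS2, and the LSH proteins 1 to 3 (LSH1, LSH2, LSH3). Each list is the consensus of 3 replicates and gives windows of 200 bp without score or read count, so the read depth is unknown and no spread between replicates could be measured.

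ALOG proteins are plant transcription factors with 1 conserved DNA-binding domain, named after Arabidopsis LSH1 and rice G1. As background, the LSH proteins belong to Arabidopsis, TMF controls the timing of flowering in tomato, G1 shapes the sterile lemma of rice, and the liverwort Marchantia is the source of LOS1 and LOS2. Where a factor has several sites close together in a promoter or gene, more than 1 molecule may bind the same stretch of DNA. In a list of fixed windows such a stretch can appear as a pair of overlapping windows, although a single broad peak split by the peak caller would look alike. These origins cannot be told apart from window positions alone. In what follows, a site is the place of 1 window of a neighbouring pair, and not a binding site shown to be separate.

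Double windows were most frequent in the lists of the 3 Arabidopsis proteins. LSH2 had 237 pairs among 21486 windows, or 11 per 1000 windows, LSH1 had 147 among 13758 (10.7 per 1000) and LSH3 had 175 among 17263 (10.1 per 1000). LOS2, the longest list with 29555 windows, had 241 pairs, 8.15 per 1000. The remaining lists had fewer for their length, with 53 pairs in LOS1 (14053 windows, 3.77 per 1000), 25 in G1 (6902 windows, 3.62 per 1000) and 48 in TMF (13667 windows, 3.51 per 1000). LSH1, LOS1 and TMF are lists of nearly the same length, yet LSH1 had about 3 pairs for each pair of LOS1 or TMF. As a share of windows, 2.13% of LSH1 windows were double (95% Wilson interval 1.9 to 2.38%), against 0.754% for LOS1 (0.624 to 0.911%) and 0.702% for TMF (0.576 to 0.857%); these intervals and those below cover counting error only. Among neighbours less than 1000 bp apart, 6.97% were double in LSH1, 5.59% in LSH2 and 5.5% in LSH3, compared with 3.71% in G1, 3.04% in LOS2, 2.67% in LOS1 and 2.59% in TMF. LSH1 carried 1 chain of 3 overlapping windows and LSH3 carried 2.

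The pairs lay close to the limit that defined them. The median start distance was 179 bp over all pairs, 814 pairs (87.9%) had a distance of at least 150 bp, and 458 (49.5%) of at least 180 bp. Within 10 bp inside the limit there were 273 pairs, and within 10 bp outside it 274 neighbours, so that no step marks the limit itself. Very close windows were rare, with 1 pair below 100 bp, in LSH2 at 47 bp. The closest pairs of the other lists were at 106 bp in LOS2, 111 bp in LSH3, 118 bp in LSH1 and LOS1, 121 bp in TMF and 151 bp in G1.

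The lists also differed in where neighbouring windows were most frequent. Per 10 bp of distance and 1000 windows, LSH1, LSH2 and LSH3 had most neighbours between 200 and 250 bp, at 3.15, 3.92 and 3.41. LOS2 rose from 1.35 between 150 and 200 bp to 4.65 between 300 and 400 bp, and LOS1 from 0.655 to 2.21 over the same distances. G1 was highest between 250 and 300 bp, at 2.26. TMF was nearly level from 250 to 600 bp, at 1.95, 1.91 and 1.89, and LSH1 had 3.05 between 250 and 300 bp. These bins differ in width. In bins of 20 bp, counts were highest from 260 bp in LSH1, 240 bp in LSH2 and G1, and 220 bp in LSH3. For LOS1, LOS2 and TMF they were highest from 320, 340 and 400 bp. In both sets of bins the most frequent distance was shorter for the Arabidopsis proteins than for LOS1 and LOS2. Among pairs below 200 bp the medians were 183, 179 and 183 bp for LSH1, LSH2 and LSH3 and 173 and 177 bp for LOS1 and LOS2.

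**Figure D1:**
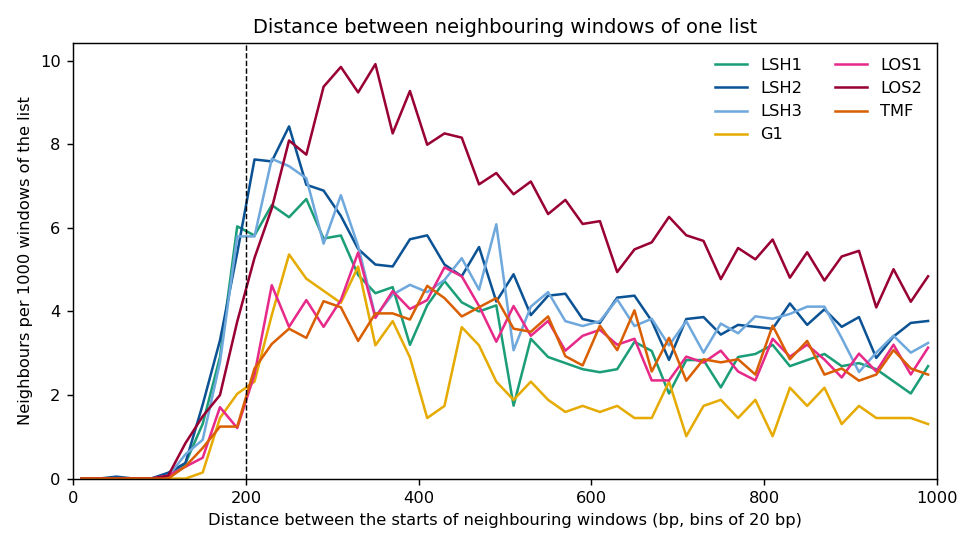
Distance between the starts of neighbouring windows of 1 list (x axis, bp, bins of 20 bp) against the number of such neighbours per 1000 windows of the list (y axis), 1 line per protein. The dashed line marks 200 bp, below which a pair counts as double; LSH1, LSH2 and LSH3 rise before the line more steeply than G1, LOS1 and TMF, and LOS2 is highest beyond 300 bp.

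Most loci were double in a single list. Of the 753 loci, 631 (83.8%) were double for 1 protein, 88 for 2, 22 for 3, 10 for 4 and 2 for 5, and none for 6 or 7. LOS2 had 198 loci double in its list alone, LSH2 154, LSH1 104, LSH3 102, LOS1 27, TMF 25 and G1 21. As a share of each protein's own loci, this was 84% for G1 (95% Wilson interval 65.3 to 93.6%), 82.2% for LOS2 (76.8 to 86.5%), 71.2% for LSH1 (63.4 to 78%), 65% for LSH2 (58.7 to 70.8%), 59% for LSH3 (51.5 to 66%), 52.1% for TMF (38.3 to 65.5%) and 50.9% for LOS1 (37.9 to 63.9%). The most frequent combination was LSH2 with LSH3, at 29 loci, followed by LSH1 with LSH2 at 11, LSH2 with LOS2 at 10, and LSH1 with LSH3 and all 3 LSH proteins at 9 each. The median locus was 382 bp wide, and the range was 306 to 616 bp.

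A locus that was double in 1 list was seldom empty in the others. Of the 631, 528 also held a window of at least 1 other protein and 103 held none. Of the 103, 73 belonged to LOS2 and 17 to LSH1, while LOS1 and TMF had none. These counts followed the lists as a whole. Of windows that were not double, 38.5% in LOS2 and 14.6% in LSH1 overlapped no other list, against 0.753% in LOS1 and 0.589% in TMF. Of double windows, the shares were 32.2%, 13.3%, 0% and 0%. Windows of all 7 proteins were present at 134 loci (17.8%), against 7.84% of all merged regions, and windows of 1 protein alone at 13.7%, against 40.4% of regions. The narrowest locus is 306 bp wide and a window is 200 bp wide, and the part of width in these counts was not tested.

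The 2 loci that were double in 5 lists lay in gene bodies. Positions are those of the deposited windows, whose genome build the labels do not name. In AT2G14080, on chromosome 2 at 5929635 to 5930033, the starts were 172 bp apart in LSH2, 151 bp in G1, 173 bp in LOS1, 178 bp in LOS2 and 168 bp in TMF. LSH1 had both windows there too, 208 bp apart, and LSH3 had only the first of them, so that 6 of the 7 lists showed both sites. In SLK3 (AT4G25515), a relative of the transcriptional co-regulator SEUSS, the locus lay on chromosome 4 at 13029821 to 13030217. The distance was 191 bp in LSH1, 196 bp in LSH3, 170 bp in LOS1, 168 bp in LOS2 and 140 bp in TMF. LSH2 had both windows at 200 bp, just outside the limit, and G1 had no window at SLK3.

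Among loci double in 4 lists, the one nearest to AT1G60110 (chromosome 1 at 22166725 to 22167110, outside a protein-coding gene) had both windows in every list. The starts were 178 bp apart in G1, 171 bp in LOS1, 176 bp in LOS2 and 172 bp in TMF, whereas LSH1, LSH2 and LSH3 had them 214, 213 and 210 bp apart. The 3 LSH lists therefore do not count as double there although they hold both sites. A separate locus close by, at 22167280 to 22167670 and also nearest to AT1G60110, was double in LSH1, LSH2 and LSH3. It had windows of all 7 lists. At the locus in AT4G24810 (chromosome 4 at 12786980 to 12787376) the lists were ordered much as at 22166725 to 22167110. The distances were 160 bp in LOS1, 162 bp in LOS2, 194 bp in G1 and LSH2, 212 bp in LSH3 and 235 bp in LSH1. In ECT2 (AT3G13460), a reader of N6-methyladenosine in mRNA, the windows were 190 bp apart in LSH2, 197 bp in LSH3, 195 bp in LOS2 and 157 bp in LOS1, and LSH1, G1 and TMF had 1 window each (chromosome 3 at 4386146 to 4386542). The locus nearest to AT4G14730 (chromosome 4 at 8447815 to 8448215) had both windows in 6 lists, at 165 bp in TMF, 190 bp in LSH1, 192 bp in LSH3, 193 bp in LOS1, 206 bp in LSH2 and 223 bp in LOS2, and 1 window in G1. The locus nearest to AT1G66100 (chromosome 1 at 24605302 to 24605691) was double in LSH1, LSH2, LSH3 and LOS2, at 182, 190, 180 and 161 bp, and G1, LOS1 and TMF had 1 window each.

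**Figure D2:**
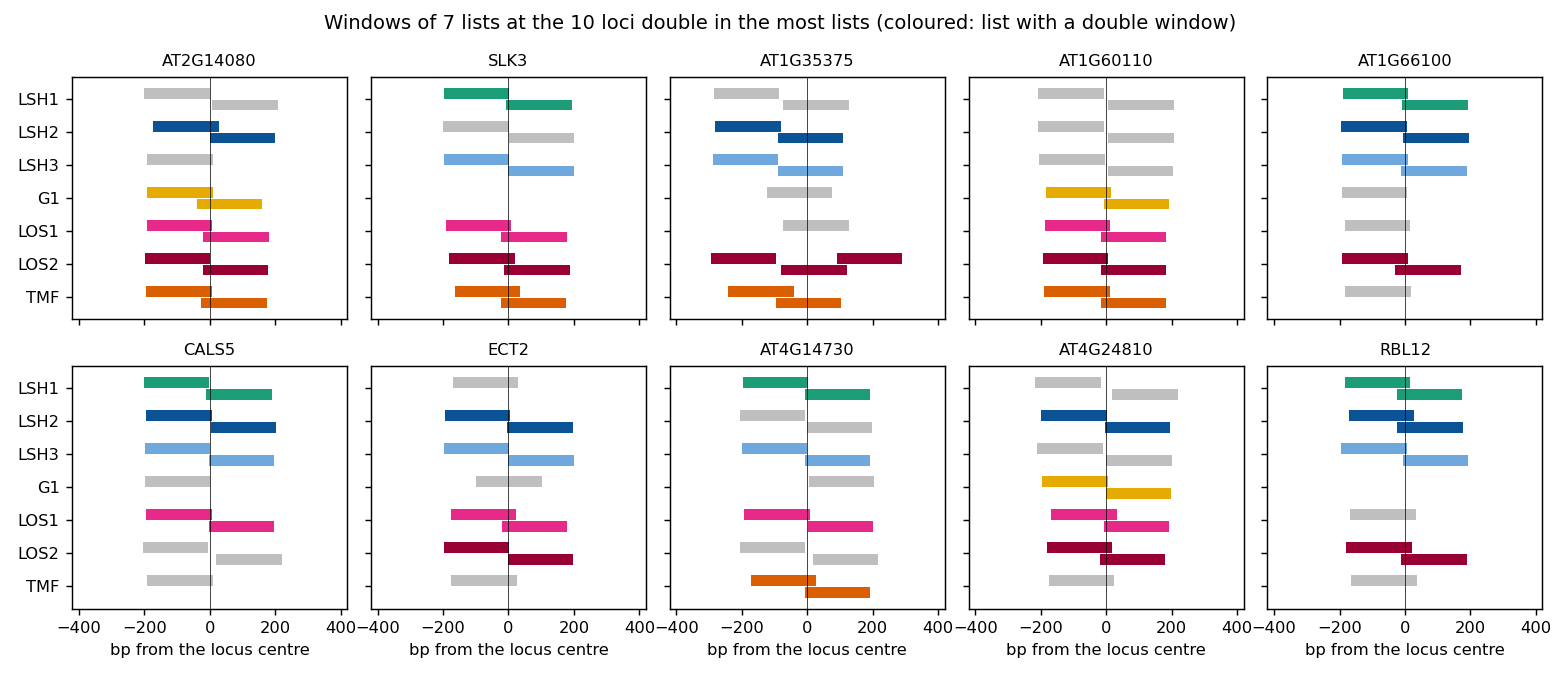
Windows of the 7 lists (rows) at the 10 loci double in the most lists, as bars of 200 bp placed by their distance from the locus centre (x axis, bp). Coloured bars belong to lists with a double window at the locus and grey bars to other lists; panels carry the gene at the locus, or the nearest gene for AT1G60110, AT1G66100 and AT4G14730. In the AT1G60110 panel every list has a pair, and the LSH pairs, in grey, stand slightly further apart.

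To see whether a pair in 1 list was also a pair in another, each of the 926 pairs was set against each of the 6 other lists, which gave 5556 cases. The other list had a double window in 463 cases (8.33%), a pair of windows 200 bp or more apart in 385 (6.93%), a single window in 2398 (43.2%) and none in 2310 (41.6%). LSH3 pairs were double in LSH2 in 28.6% of cases (95% Wilson interval 22.4 to 35.7%) and LSH2 pairs were double in LSH3 in 20.7% (16 to 26.3%), where 2.21% of all LSH2 windows and 2.02% of all LSH3 windows were double. LSH1 pairs were double in LSH3 in 17.7% of cases (12.4 to 24.7%) and in LSH2 in 16.3% (11.2 to 23.1%), but in LOS1 in 2.72% (1.06 to 6.79%) and in TMF in 3.4% (1.46 to 7.71%). LOS1 pairs were double in LSH2 in 24.5% (14.9 to 37.6%), and in LOS2 and in TMF in 22.6% each (13.5 to 35.5%). TMF pairs were double in LOS1 in 25% (14.9 to 38.8%). LSH1 and G1 shared 1 double place, which was 0.68% of LSH1 pairs (0.12 to 3.75%) and 4% of the 25 G1 pairs (0.71 to 19.5%). Of all G1 windows 0.724% were double, and G1 was double at 2 LSH2 pairs and 0 LSH3 pairs.

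The sites themselves were shared more widely than the double state. Counting a site as present when the other list had a window start within 50 bp, both sites of TMF pairs were found in LSH2 in 62.5% of cases, in LOS2 in 54.2% and in LSH3 in 50%. For LOS1 pairs the shares were 64.2% in LSH2 and 52.8% in LOS2. In the opposite direction both sites of LSH2 pairs were present in TMF in 2.95% of cases and in LOS1 in 5.91%. LSH1 and LSH3 pairs likewise had both sites in TMF in 3.4% and 2.86% of cases. Pairs of TMF and LOS1 were thus mostly found again in LSH2, while pairs of LSH2 were mostly not found again in TMF or LOS1. TMF has 13667 windows and LSH2 has 21486, and the part of list length in these shares was not tested.

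Where lists were double at the same place, they agreed closely on it. Over 227 such comparisons of lists, chains of 3 left out, the first starts differed by a median of 8 bp and the second starts by 8 bp, and both starts lay within 20 bp of each other in 156 (68.7%). The distance between the starts differed by a median of 11 bp. The rule limited this difference, as both distances lay below 200 bp and 87.9% of all pairs had at least 150 bp.

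The lists nevertheless placed the same sites at different distances. For this comparison neighbouring windows less than 400 bp apart were matched between lists when both starts agreed within 50 bp, and the matches with a mean distance of 150 to 250 bp were taken, so that neither list's limit of 200 bp chose them. Among 60 matches of LSH3 and TMF, the median distance was 242 bp in LSH3 and 209.5 bp in TMF, and LSH3 had the longer distance in 56. LSH1 was longer than TMF in 34 of 35 matches, with a median difference of 26 bp, and LSH2 was longer than TMF in 68 of 81, with a median difference of 27 bp. LOS1 windows also stood closer than those of LSH2 (76 of 94 matches, median difference 19 bp), LSH3 (55 of 65, 21 bp), LSH1 (22 of 28, 22 bp) and LOS2 (77 of 95, 15 bp). LSH1, LSH2 and LSH3 differed from one another by medians of 2 to 3 bp.

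These differences shrank when the sites were further apart. At mean distances of 300 to 400 bp, LSH3 and TMF differed by a median of 10 bp over 143 matches, LSH1 and TMF by 6 bp over 66, and LSH2 and LOS1 by 1 bp over 189. The matches of different lists share loci, so they are not independent, and no test was made. This comparison was chosen after the distances had been seen.

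**Figure D3:**
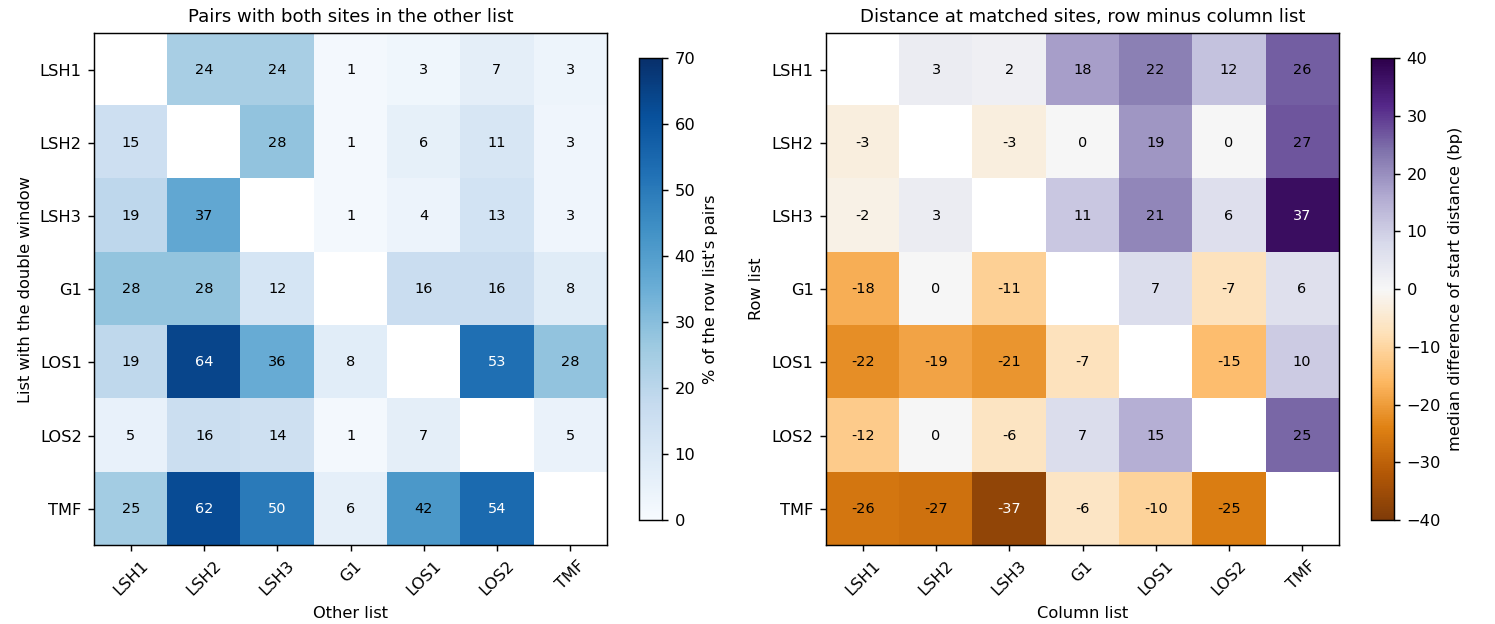
Left, share of the pairs of the row list (%) for which the column list has a window start within 50 bp of both sites; TMF and LOS1 rows are darkest in the LSH2 column, at 62.5% and 64.2%. Right, median start distance of the row list minus that of the column list (bp) at matched neighbours with a mean distance of 150 to 250 bp; the TMF row is negative throughout.

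A list with 1 window at another list's pair had it mostly toward one of the sites, and seldom midway between them. When the stretch between the centres of the pair was divided into 3 equal parts, 2283 of the 2398 single windows (95.2%) lay in an outer part or beyond it and 115 (4.8%, 95% Wilson interval 4.01 to 5.73%) in the middle part. The middle part holds 10.1% of the starts at which a window can touch the pair. Single windows lay on the side of the first site in 1207 cases and on that of the second in 1076, and 1333 (55.6%) lay within 10% of that stretch from a centre. The middle share was low for pairs of every list, from 0.847% for LOS1 (0.15 to 4.64%) to 6.79% for LSH3 (4.97 to 9.22%).

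**Figure D4:**
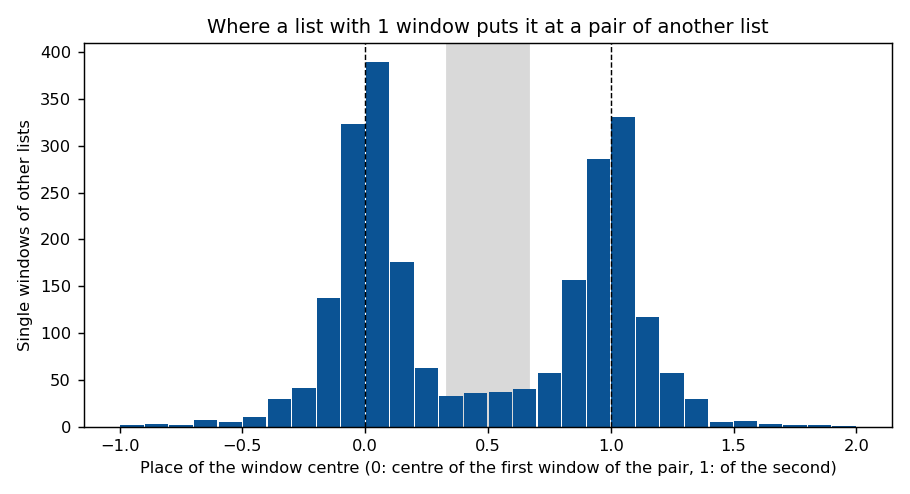
Place of the centre of 2398 single windows of other lists along the pair (x axis; 0 is the centre of the first window of the pair and 1 that of the second) against their number (y axis). The counts peak at both dashed lines and are low in the shaded middle part, which holds 4.8% of the windows.

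At most pairs the lists with 1 window were not found on both sides. Of 615 pairs at which at least 2 other lists had 1 window each, 429 (69.8%) had windows on 1 side and none on the other. These 429 may include windows in the middle part. At 185 pairs (30.1%) some lists were on one side and some on the other, and 1 pair had them in the middle part only. The share that random placement would give was not computed. At those 185 pairs each side held the single window of at least 1 protein.

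Loci lay inside protein-coding genes somewhat more often than the merged regions. The centre of 554 of the 753 loci (73.6%, 95% Wilson interval 70.3 to 76.6%) was in the body of a protein-coding gene, against 69.7% of all merged regions; 51 more lay in another gene of the table and 148 in none. Both centres of a pair lay in the same gene in 660 of 926 pairs (71.3%), in different genes in 9, and on either side of a gene end in 41. Chromosome 1 held 28.7% of loci and 26.2% of regions, and chromosome 3 17.9% and 19.8%, so loci followed the regions across the 5 chromosomes.

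Compared within each list, double windows were inside protein-coding genes in 75.6% of cases on average and the remaining windows in 72.4%. The difference was positive in 6 of 7 lists, with a mean of 3.17 percentage points (SD 2.18, n = 7 lists, exact two-sided sign-flip permutation p = 0.0312, smallest possible p 0.0156). LOS1 had the largest difference (76.4% against 69.5%), and G1 the one of opposite sign (78% against 78.1%). Without any one of LSH1, LSH2, LSH3, LOS1, LOS2 or TMF the exact permutation p was 0.0625 and the mean 2.54 to 3.39 points. With 6 lists the smallest possible exact permutation p was 0.0312, so the rise in p partly reflects the smaller number of lists. Against windows whose nearest neighbour started from 200 to under 400 bp away, the mean difference was -1.1 points (exact permutation p = 0.328, higher in 3 of 7 lists). The lists share loci and DNA, so they are not fully independent.

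Double windows were also further from the ends of genes. The median distance from a window centre to the nearest end of a protein-coding gene was 963 bp for double and 825 bp for single windows on average over lists, a difference of 138 bp (SD 134, n = 7 lists, exact two-sided sign-flip permutation p = 0.0312), with LOS2 as the exception at 810.5 against 852 bp. TMF had the widest gap, 1225 against 845 bp, and without TMF the mean fell to 97.8 bp (exact permutation p = 0.0625). Without LSH1, LSH2, LSH3, G1 or LOS1 the exact permutation p was also 0.0625. With a list left out the smallest possible exact permutation p was 0.0312, so the rise in p partly reflects the smaller number of lists. Against windows with a neighbour from 200 to under 400 bp away the difference was 26.1 bp (exact permutation p = 0.672). Genes with a locus in the body had a median length of 3346 bp, those with the centre of any window 2624 bp and all protein-coding genes 2078 bp.

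Whether double windows were shared by more proteins depended on the overlap required. With an overlap of 1 bp, a double window had a window of 3.55 of the 6 other lists on average and a single window of 3.57, a difference of -0.0223 lists (SD 0.263, n = 7 lists, exact two-sided sign-flip permutation p = 0.984). Double windows were higher in 5 of 7 lists and lower in 2, with the largest difference in G1, at -0.591. Without G1 the mean difference was 0.0529 (exact permutation p = 0.188). With an overlap of at least 100 bp, which a window midway between the sites can still reach with both, the values were 2.57 and 3.5 lists, a difference of -0.93 (SD 0.294, n = 7, exact two-sided sign-flip permutation p = 0.0156), lower in 7 of 7 lists. LSH3 had the largest difference (2.42 against 3.64 lists) and LOS2 the smallest (1.58 against 2.13). Against windows with a neighbour from 200 to under 400 bp away the direction also turned with the overlap. It was 0.369 lists higher for double windows with 1 bp (SD 0.193, exact permutation p = 0.0312, higher in 6 of 7 lists) and -0.501 lists with 100 bp (SD 0.242, exact permutation p = 0.0156). With 1 bp, a window on either site can count for both windows of the pair. With 100 bp, a window on 1 site mostly counts for only 1 window of the pair, which lowers the mean of double windows. Both values thus depend on the layout of the pair, and the part of this layout in the differences was not tested.

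**Figure D5:**
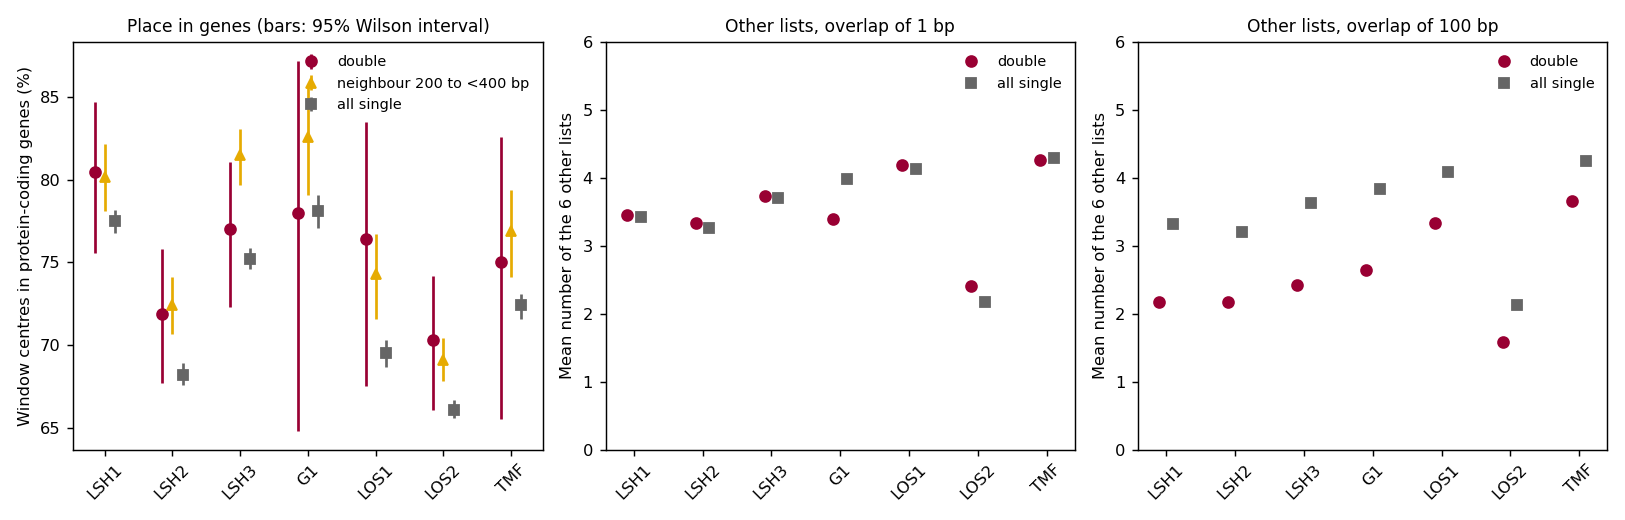
Left, share of window centres in protein-coding genes (%) for double windows, windows with a neighbour from 200 to under 400 bp away and all single windows of each list, with 95% Wilson intervals as bars. Middle and right, mean number of the 6 other lists with a window overlapping by at least 1 bp or 100 bp; double windows lie below single windows in all 7 lists at 100 bp and at 1 bp the widest gap is in G1 (3.4 against 3.99).

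Double loci were spread thinly over genes. The bodies of 553 protein-coding genes held a locus, 11 of them 2 loci and none more, and 1184 of 27444 genes (4.31%) had a locus in the body or the 2000 bp on either side. Summed over loci, the gene with the most double lists besides AT2G14080 and SLK3 was CALS5 (AT2G13680), a callose synthase needed for the pollen wall. It held 1 locus double in LSH1, LSH2, LSH3 and LOS1, at 192, 197, 196 and 192 bp (chromosome 2 at 5701906 to 5702310), and a second, at 5695486 to 5695841, double in LOS2 alone. AT5G62760 also held 2 loci, 1 double in LSH2 and LOS2 and 1 in LOS2 and TMF (chromosome 5 at 25205875 to 25206264 and 25209214 to 25209631).

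Among further genes with several double lists, VGT1 (AT3G03090), a vacuolar glucose transporter, had a locus double in LSH1 and LSH3 with windows of all 7 lists (chromosome 3 at 701276 to 701670) and another, at 700593 to 700943, with windows of LOS2 alone. CRK23 (AT4G23310), a cysteine-rich receptor-like kinase, had 1 locus double in LSH2 and LSH3 and 1 in LSH3. RBL12 (AT1G18600), a rhomboid-like protein, was double in LSH1, LSH2, LSH3 and LOS2 at 159, 149, 188 and 167 bp (chromosome 1 at 6402406 to 6402793). NIP1;2 (AT4G18910), a NOD26-like aquaporin, was double in LSH2, LSH3, LOS1 and TMF (chromosome 4 at 10367720 to 10368106). AT4G08380 was double in LSH1, LSH2, LSH3 and LOS2 (chromosome 4 at 5311670 to 5312073). AT1G35375 held a locus 579 bp wide, at 13005644 to 13006222 on chromosome 1, double in LSH2, LSH3, LOS2 and TMF. There LOS2 had 3 windows, of which the last 2 formed its double, while LSH2, LSH3 and TMF were double on the first and second.

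Of loci double in 1 list alone, no gene body held more than 1 of the same protein, so the genes are given by identifier order. They include VAD1 (AT1G02120), double in LSH2 with windows of 6 lists; LEA14 (AT1G01470), a late embryogenesis abundant protein, double in LSH3 with 4 lists; and SDE3 (AT1G05460), an RNA helicase of gene silencing, double in G1 with 3 lists. UBP2 (AT1G04860), a ubiquitin-specific protease, was double in TMF with 4 lists, and ORP1D (AT1G13170), an oxysterol-binding-related protein, in TMF with windows of all 7. DGL (AT1G05800), a lipase, was double in LSH1 with windows of 4 lists.

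The 6 double loci at listed genes of flowering and organ boundaries all lay in the flank. Among 24 floral meristem and organ identity genes 2 had a locus within 2000 bp (8.33%, against 4.31% of all protein-coding genes). They were FUL, which promotes flowering and fruit growth, double in LOS2 (chromosome 5 at 24506308 to 24506634), and SEP4, a sepal and floral meristem factor, double in LSH2 with no window of another protein (chromosome 2 at 1133370 to 1133741); the gene nearest to the SEP4 locus was MRH6. Of 28 flowering time genes 2 had one (7.14%). FLC, the floral repressor silenced by vernalisation, had a locus double in LOS2 with windows of all 7 proteins (chromosome 5 at 3181028 to 3181353), nearest to AT5G10150. The locus in the flank of SNZ, a floral repressor, was double in LSH1 and lay in the body of the neighbouring AT2G39260. Of 18 organ boundary and KNOX/BELL genes 2 had one (11.1%). The locus of the boundary gene JLO, double in LSH3 with windows of all 7 proteins, lay nearest to LBD31, and that of the KNOX homeobox gene KNAT6 had windows of LOS2 alone.

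Of 10 ALOG genes 2 had a locus in the flank (20%). The one at LSH2 was double in LSH3 with windows of 5 lists (chromosome 3 at 1214434 to 1214830) and lay nearest to AT3G04500, and the one at LSH4, an organ boundary gene, was double in LOS2 with windows of 6 (chromosome 3 at 8325582 to 8325962). None of 15 meristem maintenance and polarity genes had one. Of 16 light signalling genes 1 had one (6.25%): the locus in the flank of DET1, a repressor of photomorphogenesis, was double in TMF and lay in the body of AT4G10170. Of 12 housekeeping genes 3 had one (25%). The locus at GAPC1 lay in its body and was double in LSH2, the one near EIF4A1 lay in the body of AT3G13930 and was double in LSH2, and the one near UBQ5 lay in the body of AT3G62240 and was double in LSH3. With 0 to 3 genes per list these shares, beside 4.31% of all protein-coding genes, were not tested. Most listed genes had a window of some list, as 21 of the 24 floral identity, 27 of the 28 flowering time and all 12 housekeeping genes did. The 4.31% is over all genes, with or without a window, so the sets compared are unlike.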

How the data were processed

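The deposited lists give chromosome, start and end of each window, per the files' contents; start and end positions are the deposited values, in the other category of units, with no score or count. Per the submitters' processing notes, Bowtie2, SAMtools and MACS2 were used; not given in the sources used here are their versions and parameters, and the build of the genome. Per the series' design text, peaks found in all 3 replicates were kept. Positions are printed counted from 1, so a printed start is the start in the file plus 1, and a printed end is that of the file. Gene names and positions relative to genes came from a RefSeq table of assembly TAIR10.1 (27444 protein-coding genes; all 123 listed genes matched); 71.1% of windows lay in genes, and 67.4% after shifts of 1000 bp either way. The table has no strand.

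Double and single windows were compared by exact two-sided sign-flip permutation over the 7 lists (128 sign patterns). Named genes were the 12 gene bodies with most double lists, the 10 loci double in most lists, 2 genes per list and the members of 7 gene lists. Members, gene lists and tests were chosen with earlier results of these data known. No genome sequence was used, so the planned motif count was not run. Python 3.11.15, numpy 2.4.6, pandas 2.3.3, scipy 1.17.1 and matplotlib 3.10.9 were used. Pair finding was tested on pairs planted into the thinned real lists. The sign-flip test was tried on simulated shares drawn independently for each list, without loci shared between lists.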

Additional observations from a re-analysis of the deposited data

How the results depend on the processing

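The start distance of 200 bp sets the number of members: the pairs over all lists numbered 112 below 150 bp, 1 below 100 bp and 4473 below 300 bp, and the loci 108, 1 and 2701. Merging with 100 bp gave 753 loci, and leaving out 1 protein gave 555 to 732. The share of cases double in another list was 1.19% below 150 bp and 21% below 300 bp. The middle share of single windows became 7.88% when windows nearer to the midpoint than to a centre were counted. Genes with a locus numbered 553 for the gene body. Below 100 bp no comparison over lists was possible, as 1 list has such a pair, and below 150 bp G1 has none.

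For the share inside genes, leaving out 1 protein gave 2.54 to 3.72 percentage points, past the threshold only without G1. With 1 protein left out the smallest possible exact permutation p was 0.0312. The comparison with windows from 200 to under 400 bp from a neighbour turned the difference inside genes to -1.1. For the number of other lists, the value was 0.028 below 150 bp (exact permutation p = 0.812), -0.452 below 300 bp (p = 0.0156 in the same exact test), -0.93 with an overlap of 100 bp, -1.01 with centres within 50 bp, 0.369 against windows from 200 to under 400 bp from a neighbour (p = 0.0312 in that exact test) and -0.501 against those with 100 bp; without 1 protein it was -0.0532 to 0.0529. The distance to gene ends was 184 bp below 150 bp (exact permutation p = 0.125), 26.1 bp against windows from 200 to under 400 bp from a neighbour, and 97.8 to 168 bp without 1 protein. The causes were not tested. Comparisons with windows from 200 to under 400 bp from a neighbour, centres within 50 bp and leaving out a protein for gene ends were chosen after seeing the data. The tests paired double with single windows within each list. Replicates could not be paired, because each protein has 1 list without numbered replicates. Depth is unknown, so lower pair numbers in a list cannot be told apart from shallower calling.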
